A study of Mus musculus with 36 samples.

Results

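Small RNA was compared in epididymal white adipose tissue (eWAT), the visceral fat depot attached to the epididymis, between 6 libraries of the HFLF group and 4 libraries of the LF group of the same study. These are 10 of the 36 libraries of the series, which holds liver and eWAT in 3 groups each, LF, HF and HFLF, with 6 libraries per group and tissue. The LF libraries used were replicates 2, 3, 5 and 6. LF replicates 1 and 4 were left out because their miR-200 family, a group of epithelial miRNAs, stood far above that of every other eWAT library. All mice were wild-type C57BL/6 males of the F1 generation, 24 weeks old, on chow to 6 weeks of age and on a set diet for the next 18 weeks. The diet tag is LFD in the LF group and HFLFD in the HFLF group, while the treatment text names LFD for every sample. Whether the tag describes what the mouse ate or what its father ate cannot be read from the labels, and the groups keep their names here. That replicates came from separate mice is stated in the titles' numbering at most, and a p-value reflects only how these libraries vary, which may be technical.

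The LF libraries were chosen by measured values, those of the miR-200 family. Its summed level was 15997 CPM (reads of a miRNA per 1e6 reads of the library's counts) in LF replicate 1 and 20819 CPM in LF replicate 4. No numeric limit was stated for the choice. The highest library kept was LF replicate 6, far lower at 290 CPM (289.98), and the other 15 eWAT libraries, HF included, lay between 62.1 and 169 CPM. The 6 members of the family that passed the filter stayed in the table that was fitted. miR-200c-3p is among the lower miRNAs counted below and among those named by their p, so its p entered that count and that choice. Values of the family are otherwise given as a description, and nothing further is drawn from a p of theirs. The deposited table counts 1966 mature miRNA names in 2118 lines, and 1 line was kept per name, the one with the highest total. Of these names 1186 had a count in at least 1 of the 10 libraries, 780 had none, and 612 passed the filter on low counts and were tested. Library totals ran from 11512416 to 17714156 counts. Summed markers of adipose tissue were high in both groups (288117 to 374350 CPM in LF and 316448 to 363613 CPM in HFLF, 6 of 6 markers in every library), against 713 to 2444 and 859 to 3333 CPM for 2 liver markers. The largest part of the adipose sum was miR-143-3p, at 128994 to 211181 CPM in LF and 157846 to 199798 CPM in HFLF. That miRNA also makes up most of the fibroblast and smooth muscle list, which summed to 146522 to 229905 CPM in LF and 175327 to 216688 CPM in HFLF. The adipose sum thus does not single out adipocytes. LF replicates 1 and 4, left out, held like adipose sums of 291369 and 317335 CPM, so the sum does not show how free a library was of other tissue. Tissue holds several cell types, so fewer cells of a type and less RNA per cell cannot be told apart.

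A miRNA is a short RNA cut from a hairpin precursor that guides Argonaute proteins to messenger RNAs. Its seed, the bases 2 to 8 from its 5′ end, pairs with the target, so miRNAs with one seed can share targets. In fat, let-7, miR-143, miR-26, miR-30 and miR-10 are among the abundant families, let-7 is known for restraining growth and insulin signalling, and miR-143 is known for promoting adipocyte differentiation. Leukocytes add miR-142, miR-223 and miR-342, and stromal fibroblasts add miR-199a and miR-214.

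The miRNAs with the largest differences in the lower direction came from a cluster on chromosome X that is known for expression in male germ cells. Their mature sequences are shown because some members share a seed and several names share one whole sequence. Sequences are from RefSeq, build GRCm38.p6, written 5′ to 3′ with the seed in capitals.
miR-465a-3p: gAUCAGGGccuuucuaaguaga
miR-465b-3p: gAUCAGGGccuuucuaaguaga
miR-465c-3p: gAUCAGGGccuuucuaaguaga
miR-465c-5p: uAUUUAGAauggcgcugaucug
miR-465b-5p: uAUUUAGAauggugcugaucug
miR-743a-3p: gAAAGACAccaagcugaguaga
miR-743b-3p: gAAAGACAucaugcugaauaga
miR-741-3p: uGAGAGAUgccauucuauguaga
miR-881-3p: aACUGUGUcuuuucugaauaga
miR-470-5p: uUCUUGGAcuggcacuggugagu
miR-871-3p: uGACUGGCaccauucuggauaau
miR-880-3p: uACUCCAUccucucugaguaga

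The miR-465a, miR-465b and miR-465c 3p arms are the same sequence, so reads cannot be told apart between them. The sequences of miRNAs at 10 CPM or more with the smallest p-values follow, since their differences are described one by one. The miR-92a-3p seed is shared with miR-92b-3p, and that of miR-190a-5p with miR-190b-5p.
miR-190a-5p: uGAUAUGUuugauauauuaggu
miR-190b-5p: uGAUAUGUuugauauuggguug
miR-199a-5p: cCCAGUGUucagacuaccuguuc
miR-182-5p: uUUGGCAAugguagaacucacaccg
miR-130b-5p: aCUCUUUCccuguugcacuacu
miR-92a-3p: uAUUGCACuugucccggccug
miR-92b-3p: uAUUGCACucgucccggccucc
miR-342-3p: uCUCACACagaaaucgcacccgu
miR-142a-5p: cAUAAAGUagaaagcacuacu
miR-223-3p: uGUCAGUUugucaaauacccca

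The abundant let-7 arms share 1 seed and differ outside it.
let-7a-5p: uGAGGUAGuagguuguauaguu
let-7c-5p: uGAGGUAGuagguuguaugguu
let-7f-5p: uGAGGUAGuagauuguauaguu
let-7g-5p: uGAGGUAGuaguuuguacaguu

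Across all 612 tested miRNAs no difference between HFLF and LF passed the threshold. By edgeR's quasi-likelihood test with Benjamini-Hochberg adjustment 0 miRNAs were higher and 0 lower in HFLF at an adjusted p under 0.05, and the lowest adjusted p was 0.150. At an unadjusted p under 0.05, 5 miRNAs (0.817%) were higher and 29 (4.74%) lower, 34 in all or 5.56% of those tested. DESeq2 called 0 higher and 7 lower (1.14%) and limma-trend 0 higher and 6 lower (0.98%). The 7 were the 3p arms of miR-465a, miR-465b, miR-465c, miR-741, miR-743a, miR-743b and miR-881, all of the X-linked cluster. The 6 were the same 3p arms of miR-465a, miR-465b, miR-465c, miR-741 and miR-881, with miR-202-5p, a miRNA known from the gonads. LF replicate 2 bears on this count, because edgeR without it called 5 of 658 miRNAs lower (0.76%), the 3p arms of miR-465a, miR-465b, miR-465c, miR-743a and miR-743b. In each of these counts the miR-465a, miR-465b and miR-465c 3p arms are 1 sequence with the same reads, so they are 1 result under 3 names. With all 6 LF libraries edgeR called 0 of 576, with 17 higher and 55 lower at an unadjusted p under 0.05.

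The log2 differences, HFLF minus LF, centred on zero. Their median was -0.00, the quartiles were -0.24 and 0.16, and 304 lay above and 308 below 0. The precision depended on the level. The median standard error was 0.33 over all tested miRNAs and 0.13 over the 156 with a mean of at least 100 CPM. For 148 of those 156 the 95% interval of the difference lay within 2-fold in both directions, as it did for 316 of all 612 (51.6%). Of 314 miRNAs with a mean of at least 10 CPM, 2 were more than 2-fold lower and 1 more than 2-fold higher. Of the 298 below 10 CPM, 32 were more than 2-fold lower and 19 more than 2-fold higher.

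**Figure D1:**
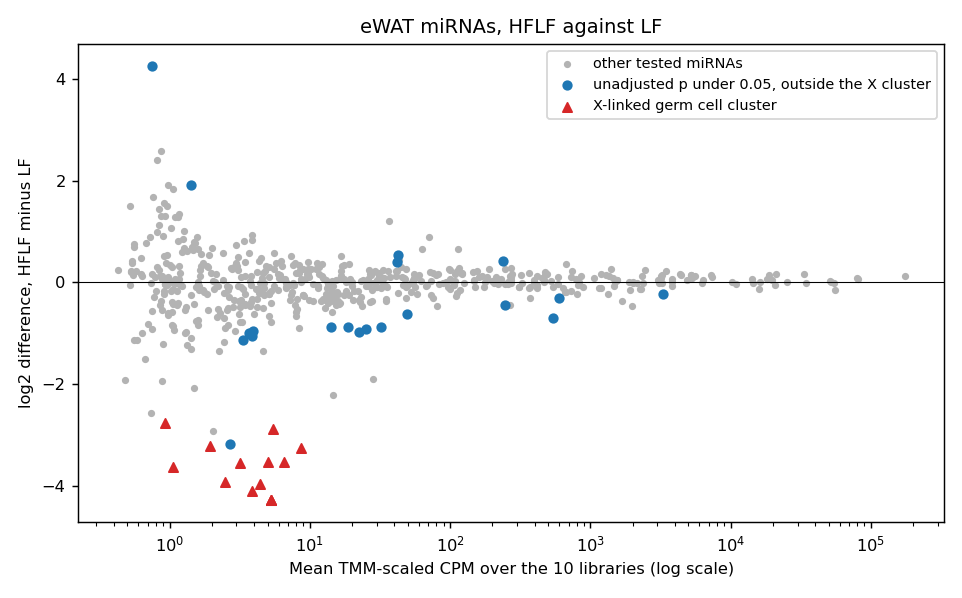
Each point is 1 of the 612 tested miRNAs, with its mean level in TMM-scaled CPM on a log axis and its log2 difference, HFLF minus LF, on the vertical axis. The 14 tested members of the X-linked cluster (red triangles) lie between -4.29 and -2.77 and all have means under 10 CPM, while the differences of the 156 miRNAs at 100 CPM or more lie between -0.70 and 0.66.

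The 3 miRNAs at 10 CPM or more beyond 2-fold were miR-215-5p, miR-375-3p and miR-196b-5p, and they are named because of these values. miR-215-5p, a miRNA of gut and kidney epithelium, was at 15.1, 158, 17.5 and 12.3 TMM-scaled CPM in LF replicates 2, 3, 5 and 6 and at 5.3 to 24 (median 12.9) in HFLF. Its log2 difference of -1.90 ± 0.84 (SE) came with an edgeR adjusted p of 0.830, and LF replicate 3 alone was above all HFLF libraries. Without LF replicate 3 it was -0.14. miR-375-3p, which marks endocrine and secretory epithelial cells, was at 6.96, 49.6, 16.6 and 38.2 in LF and 0.475 to 19.1 (median 2.15) in HFLF, a difference of -2.22 ± 1.01 with an edgeR adjusted p of 0.830 (-3.05 without HFLF replicate 2). In the libraries left out it was at 3298 CPM (LF replicate 1) and 152 CPM (LF replicate 4). miR-196b-5p, encoded in the Hoxa cluster within an exon of Hoxa9, was at 12.8, 34.6, 15.4 and 19.3 in LF and at 9.07, 3.33, 7.54, 232, 19.4 and 13 in HFLF replicates 1 to 6. The single high value is HFLF replicate 4, and without it the log2 difference of 1.21 ± 1.26 turned to -0.95. LF replicate 4, left out here, stood at 915 CPM.

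The X-linked cluster spans chromosome X, 66776757 to 66839125 (GRCm38.p6), on the minus strand, holds 19 annotated hairpins and lies in no annotated host gene. It was singled out after its values were seen, and is described without a test of its own. The count table names 34 of its mature miRNAs. Of these, 25 had a count in the 10 libraries and 9 had none. The filter asked for a level near 10 counts in at least 4 libraries. All 14 that passed it reached 10 counts in at least 3 LF libraries, and 3 of 14 reached it in 4 HFLF libraries. Those 3 could pass by HFLF alone, and members near 0 in LF replicate 2 also needed an HFLF library. The 14 thus passed mostly, but not only, through LF. Their direction and their p-values are partly built into the filter and into the choice of the cluster, and nothing is read from how many of them were low. As a description, the 14 lay below 0 with a median log2 difference of -3.59 and a range of -4.29 to -2.77, and none passed adjustment in edgeR. The 11 members with a count that did not pass the filter were at a higher rate in LF. For 7 of them, with 0 counts in every HFLF library, that direction is fixed by having any count in LF. Those 7 held from 2 (miR-743a-5p) to 87 (miR-878-5p) counts over the LF libraries used. The share over all untested names was not counted, and nothing is read from these 11.

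The cluster was summed with names of identical counts in all 18 eWAT libraries taken once. miR-465c-3p differs from miR-465a-3p in a few libraries outside the comparison, so both names entered. The reads of their shared sequence are thus counted under both, and every sum is too high by that much. So summed, LF replicates 2, 3, 5 and 6 held 10.5, 171 (170.95), 160 (159.6) and 166 CPM of the library total. HFLF replicates 1 to 6 held 0.534, 4.96, 7.98, 17.2, 9.85 and 20.0 CPM. LF replicates 3, 5 and 6 thus stood above every HFLF library, and LF replicate 2 lay inside the HFLF range. The sums ran wide in the eWAT libraries outside the comparison too. The HF group held 21.3, 179, 12.7, 1.54, 65.2 and 517 CPM in replicates 1 to 6, and the LF libraries left out held 24.9 CPM (replicate 1) and 1085 CPM (replicate 4). LF and HF thus each held libraries below and far above 20.0 CPM, the highest value in HFLF.

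**Figure D2:**
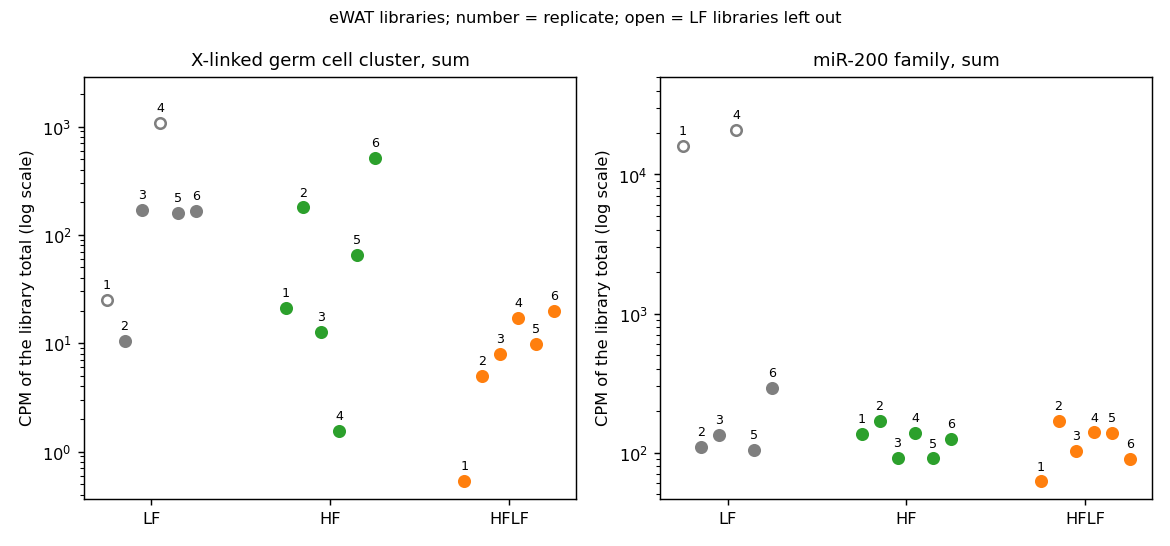
Left, the summed CPM of the X-linked cluster, and right, that of the miR-200 family, in all 18 eWAT libraries on log axes. The cluster sum counts the shared sequence of miR-465a-3p and miR-465c-3p under both names. Each point is 1 library with its replicate number, and open points are LF replicates 1 and 4, left out of the comparison. LF replicates 3, 5 and 6 lie near 160 to 171 CPM for the cluster, above all HFLF libraries, while LF replicate 2 at 10.5 CPM lies among them.

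Single members divided the libraries in a like way. miR-465a-3p was at 1.14, 13.7, 16.6 and 18 TMM-scaled CPM in LF replicates 2, 3, 5 and 6 and at 0, 0.148, 0.408, 1.84, 0.283 and 1.04 in HFLF replicates 1 to 6. Its highest HFLF value exceeds that of LF replicate 2, and the other LF libraries are above all of HFLF. The log2 difference was -4.29 ± 0.95 (SE), with an edgeR adjusted p of 0.150 that became 0.022 without LF replicate 2. The 0 counts of HFLF replicate 1 allow up to 0.178 CPM in that library, an upper limit of 3 counts that covers counting error only. miR-743b-3p gave 0.669, 15.9, 8.86 and 15.1 in LF and 0 to 1.31 (median 0.713) in HFLF, a difference of -3.97 ± 0.91 with an edgeR adjusted p of 0.150. Its seed partner miR-743a-3p gave 0.134, 10.2, 12.8 and 12.6 in LF and 0 to 1.43 (median 0.286) in HFLF, a difference of -4.11 ± 1.09. In both, LF replicate 2 lay within the HFLF range.

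The other named members showed the same split. miR-465c-5p, the most abundant of them, was at 0.602, 25.6, 24.4 and 23.9 in LF and 0 to 3.73 (median 1.91) in HFLF. miR-470-5p was at 0.669, 17.6, 14.8 and 11.6 in LF and 0 to 2.28 (median 0.877) in HFLF. miR-871-3p was at 0, 24.2, 14.1 and 20.0 in LF, with no count in replicate 2, and at 0 to 3.52 (median 1.12) in HFLF. For each of these LF replicate 2 was the lowest LF library, as it was for all 14 tested members. miR-881-3p was at 0.869, 8.41, 5.43 and 7.82 in LF and 0 to 1.17 (median 0.0589) in HFLF, and miR-880-3p at 0, 4.12, 3.57 and 1.78 and 0 to 0.966 (median 0). miR-741-3p was at 2.54, 7.16, 10.9 and 7.75 in LF and 0 to 1.79 (median 0.145) in HFLF. It was the 1 cluster member whose groups did not overlap, where 0.327% of all tested miRNAs were lower in HFLF without overlap. Without LF replicate 2 the median over the 14 members was -3.95.

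Outside the cluster, miR-202-5p had a difference of like size. It was at 4.82, 10.7, 2.16 and 5.28 TMM-scaled CPM in LF and 0 to 2.42 (median 0.139) in HFLF, a log2 difference of -3.18 ± 1.10 with an edgeR adjusted p of 0.568. LF replicate 5, at 2.16, is below the highest HFLF library. Of the 25 miRNAs listed for germ cells and epididymis, 18 of which belong to the cluster, 19 were tested (14 in the cluster and 5 outside it), 18 lay below 0 and 1 above, 0 passed adjustment, and the median was -3.53. That median is largely set by the 14 cluster members, which passed the filter mostly through LF. The miR-465a, miR-465b and miR-465c 3p arms are the same sequence and all stand in the list. The reads of that sequence thus enter the counts and the median under each name. They enter the list sum in the same way, and every such sum is too high by that much. The summed level of the whole list was 52.6 to 285 CPM in the LF libraries used and 31.4 to 89.5 CPM in HFLF. It was 4432 CPM in LF replicate 1 and 1421 CPM in LF replicate 4, so the libraries set aside for miR-200 were also the highest in this list. The part of germ cell or epididymal RNA in the differences was not tested.

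miR-34b-3p and miR-34c-5p, made from 1 precursor region on chromosome 9 and known from ciliated epithelium and male germ cells, had lower means in HFLF than in LF, without passing the test. miR-34b-3p was at 14.3, 24.2, 24.5 and 39.7 in LF and 7.54 to 21.5 (median 13.7) in HFLF, a difference of -0.88 ± 0.31 with an edgeR adjusted p of 0.568. miR-34c-5p was at 21.5, 53.3, 40.6 and 61.5 in LF and 14.8 to 49.6 (median 19.8) in HFLF, a difference of -0.87 ± 0.37 with an edgeR adjusted p of 0.830. The groups overlap in both. With all 6 LF libraries the differences became -4.43 and -4.29, and LF replicate 1 held 1505 CPM of the first and 2477 CPM of the second.

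Epithelial miRNAs were not equal in the libraries that remained. miR-200c-3p, a repressor of the Zeb transcription factors, was at 22.7, 30.2, 14.1 and 59.7 TMM-scaled CPM in LF and 8.77 to 26 (median 16.5) in HFLF, with LF replicate 6 the highest and LF replicates 2 and 5 inside the HFLF range. It belongs to the family that chose the libraries, so its values are a description. miR-182-5p, of the sensory and epithelial miR-183 cluster on chromosome 6 (30165918 to 30165992), was at 43.7, 49.2, 15.8 and 31.9 in LF and 12.3 to 22.9 (median 18.4) in HFLF. LF replicate 5 lay inside the HFLF range and the other LF libraries above it. The difference of -0.93 ± 0.27 had an edgeR adjusted p of 0.325, and without the low-count filter it passed, at -0.90 with an edgeR adjusted p of 0.033. The miRNA moves with the choice of libraries, since LF replicates 1 and 4 held 370.2 and 2160.3 CPM. Over 9 epithelial markers the summed level was 162 to 382 CPM in the LF libraries used, 81.9 to 226 CPM in HFLF, and 19745 and 26834 CPM in LF replicates 1 and 4. The 9 include members of the miR-200 family, which chose the libraries, so this sum largely restates that choice and is a description. None of the 9 was at 0 in all 10 libraries, and their part in these differences was not tested.

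The leukocyte miRNAs miR-142a-5p, miR-342-3p and miR-223-3p had lower means in HFLF without passing the test, and their differences were smaller without LF replicate 2. miR-142a-5p, made in blood-forming cells from the Mir142hg locus, was at 1306, 521, 364 and 639.8 TMM-scaled CPM in LF and 343 to 492 (median 455) in HFLF. LF replicate 2 was the highest by a wide margin, LF replicate 5 lay inside the HFLF range, and the difference was -0.70 ± 0.30 with an edgeR adjusted p of 0.830. Without LF replicate 2 it was -0.19. The other arm of the hairpin, miR-142a-3p, was at 103, 43.7, 26.1 and 47.1 in LF and 28.6 to 66.7 (median 40.0) in HFLF, and its difference went from -0.30 ± 0.35 to 0.22 without LF replicate 2.

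miR-342-3p, abundant in lymphocytes and monocytes and encoded in an intron of Evl on chromosome 12 (108658620 to 108658718), was at 431, 292, 238 and 213 in LF and 161 to 275 (median 215) in HFLF. Its groups overlap, and the difference of -0.45 ± 0.19 had an edgeR adjusted p of 0.830 and was -0.17 without LF replicate 2. miR-223-3p, a miRNA of neutrophils and macrophages from chromosome X (96242817 to 96242926), was at 878, 624.9, 641 and 544 in LF and 479 to 684 (median 518) in HFLF. The difference of -0.30 ± 0.14 had an edgeR adjusted p of 0.830 and was -0.12 without LF replicate 2. LF replicate 2 was the highest library for all 3 of these miRNAs at TMM-scaled level.

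As lists, 11 of 13 tested macrophage and granulocyte miRNAs lay below 0 and 2 above (median -0.24), and 7 of 8 lymphocyte miRNAs lay below and 1 above (median -0.36), with 0 called in either. Over all tested miRNAs 308 of 612 lay below 0 and the median was -0.00. The lymphocyte list summed to 10315 CPM in LF replicate 2, to 5470.4 to 7011 CPM in the other LF libraries used, and to 5734 to 6739 CPM in HFLF. Apart from LF replicate 2 the groups thus covered like ranges. The 2 lymphocyte markers summed to 1470.4 to 3961 CPM in LF, the highest again LF replicate 2, and 1446 to 1990 (1989.7) CPM in HFLF. The 3 myeloid markers summed to 1098 to 2461 CPM in LF and 859 to 1232 CPM in HFLF. None of these 5 markers was at 0 in all 10 libraries, and the part of leukocyte content was not tested.

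miR-92a-3p was the 1 miRNA at 10 CPM or more whose groups did not overlap. It belongs to the miR-17-92 cluster, which promotes cell growth, and is made from the Mir17hg transcript on chromosome 14 (115044427 to 115044506) and from a copy on chromosome X (52741838 to 52741928). Its level was 4026, 3788, 3362 and 3383 TMM-scaled CPM in LF replicates 2, 3, 5 and 6 and 3118, 2840.4, 3118, 3169, 3127 and 3171 in HFLF replicates 1 to 6. Every HFLF library was below every LF library used, as for 2 of 612 miRNAs (0.327%). With the 1 that was higher in HFLF without overlap (0.163%) this makes 3 (0.49%). The group means were 3639.9 ± 324 (SD, n = 4) and 3091 ± 125 (SD, n = 6), the log2 difference -0.24 ± 0.09 (SE), its 95% interval -0.42 to -0.05 and edgeR's adjusted p 0.637. In the libraries outside the comparison the plain level was 2509.9 CPM in LF replicate 1, 3398 CPM in LF replicate 4 and 3148 to 3483 CPM in HF. LF replicate 1 is thus below all HFLF libraries, whose plain levels were 2889 to 3222 CPM. With all 6 LF libraries the difference was -0.15, and without LF replicate 2 it was -0.15.

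Of 12 tested members of miR-17-92 and its relatives, 9 lay below 0 and 3 above, with a median of -0.17 and 0 called. Their summed plain level, of which miR-92a-3p is a large part, was 8464, 7628, 7714 and 7422 CPM in LF replicates 2, 3, 5 and 6 and 6653 to 7007 CPM in HFLF. The 2 ranges do not overlap, which held for 1 of the 24 lists. The HF libraries spanned both, with 6569 to 7760.4 CPM, and the LF libraries left out held 5693 and 7015 CPM.

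miR-130b-5p, from the hairpin whose other arm is known to target Pparg, was at 21.8, 26.8, 20.0 and 9.67 TMM-scaled CPM in LF and 6.93 to 13.7 (median 10.7) in HFLF. LF replicate 6 lay inside the HFLF range and the other LF libraries above it, and the difference of -0.88 ± 0.28 had an edgeR adjusted p of 0.385. The other arm, miR-130b-3p, was at 6.15, 3.4, 3.2 and 0.412 in LF and 1.2 to 4.93 (median 2.28) in HFLF, a difference of -0.35 ± 0.60 that was 0.18 without LF replicate 2. Both come from a hairpin on chromosome 16 (17124061 to 17124142). miR-6240 was at 76.9, 38.4, 65.6 and 68.3 in LF and 18.9 to 55.4 (median 40.7) in HFLF, with LF replicate 3 inside the HFLF range and a difference of -0.62 ± 0.26 (edgeR adjusted p 0.830).

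On the higher side 5 miRNAs had an unadjusted p under 0.05 and none passed adjustment. miR-190a-5p, encoded in an intron of Tln2 on chromosome 9 (67236660 to 67236726), had the smallest p of those at 10 CPM or more. It was at 40.3, 29.4, 32.7 and 31.4 TMM-scaled CPM in LF replicates 2, 3, 5 and 6 and at 59.6, 55.1, 49, 32.4, 52.4 and 43.4 in HFLF replicates 1 to 6. Of the HFLF libraries 5 stood above all LF libraries, and HFLF replicate 4 lay inside the LF range. The log2 difference was 0.54 ± 0.18 (SE), with a 95% interval of 0.15 to 0.93 and an edgeR adjusted p of 0.526. In HF, 4 of 6 libraries were above all used LF libraries in plain CPM, while LF replicates 1 and 4 held 17.8 and 78.3 CPM.

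miR-199a-5p and miR-214-3p, stromal miRNAs, are both made from the Dnm3os transcript on chromosome 1 (162217814 to 162223477), and miR-199a has a further copy on chromosome 9. miR-199a-5p was at 185, 199.5, 159.7 and 258 in LF and 204 to 335 (median 259.9) in HFLF, a difference of 0.41 ± 0.16 with an edgeR adjusted p of 0.707. miR-214-3p was at 198, 237, 227 and 219 in LF and 188 to 321 (median 267) in HFLF, a difference of 0.26 ± 0.15. The opposite arm miR-199a-3p was at 4392, 4880.1, 4908 and 5399 in LF and 4497 to 6411 (median 5624) in HFLF, a difference of 0.15 ± 0.11. All 3 overlap between the groups, and all 3 change direction when LF replicates 1 and 4 are put back, to -0.27, -0.27 and -0.22. In those 2 libraries miR-199a-5p held 702 and 384 CPM. Of 13 tested miRNAs of fibroblasts and smooth muscle 12 lay above 0 and 1 below (median 0.14, 0 called), where 304 of all 612 lay above 0. The 3 markers of these cells, which leave out miR-143-3p, summed to 6394 to 7033 CPM in LF and 5923 to 8430.2 CPM in HFLF. The part of these cells was not tested.

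miR-28c was at 29.8, 29.6, 38.6 and 42.5 TMM-scaled CPM in LF and 36.4 to 56.1 (median 47.5) in HFLF, a difference of 0.40 ± 0.17 with an edgeR adjusted p of 0.830. The groups overlap. miR-126a-5p, from the endothelial gene Egfl7, was at 2881, 2844, 2926 and 3987 in LF and 3372 to 4393 (median 3549.7) in HFLF, a difference of 0.22 ± 0.12. All HFLF libraries were above LF replicates 2, 3 and 5, and LF replicate 6 was above all but 1 HFLF library. Of 7 tested endothelial miRNAs 4 lay above and 3 below 0, with a median of 0.08. miR-27a-3p, which restrains adipocyte differentiation, was at 4166, 3545, 3816 and 4600 in LF and 3982 to 4915 (median 4626) in HFLF, a difference of 0.17 ± 0.10. miR-34a-5p, a p53 target reported to increase in obese fat, was at 264, 168, 272 and 260.1 in LF and 225 to 354 (median 299) in HFLF, a difference of 0.27 ± 0.16. LF replicate 3 was the lowest library for both.

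A further 3 miRNAs fill the higher side. miR-99b-3p was at 88, 68.1, 94.3 and 102 in LF and 98.3 to 116 (median 103) in HFLF, a difference of 0.25 ± 0.14. miR-450b-3p, from the miR-322-503 region of chromosome X, was at 41.9, 36.7, 42.7 and 51.1 in LF and 41.2 to 56.1 (median 54.8) in HFLF, a difference of 0.26 ± 0.16. miR-1983 was at 64.5, 12.1, 46.6 and 63.9 in LF and 60.7 to 98.2 (median 70.1) in HFLF, a difference of 0.65 ± 0.37, with LF replicate 3 far below the other libraries. Each of 7 miRNAs on this side (miR-126a-5p, miR-27a-3p, miR-34a-5p, miR-99b-3p, miR-450b-3p, miR-1983 and miR-214-3p) had an edgeR adjusted p of 0.948 and groups that overlap. Below 10 CPM, miR-3109-3p, encoded in an intron of Anxa2, was the 1 miRNA higher in HFLF without overlap. It was at 0, 0, 0.223 and 0 in LF and 1.83, 0.888, 0.272, 2.08, 1.77 and 0.483 in HFLF replicates 1 to 6, with an edgeR adjusted p of 0.385, and these levels rest on 117 counts over the 10 libraries, 3 of them in LF.

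**Figure D3:**
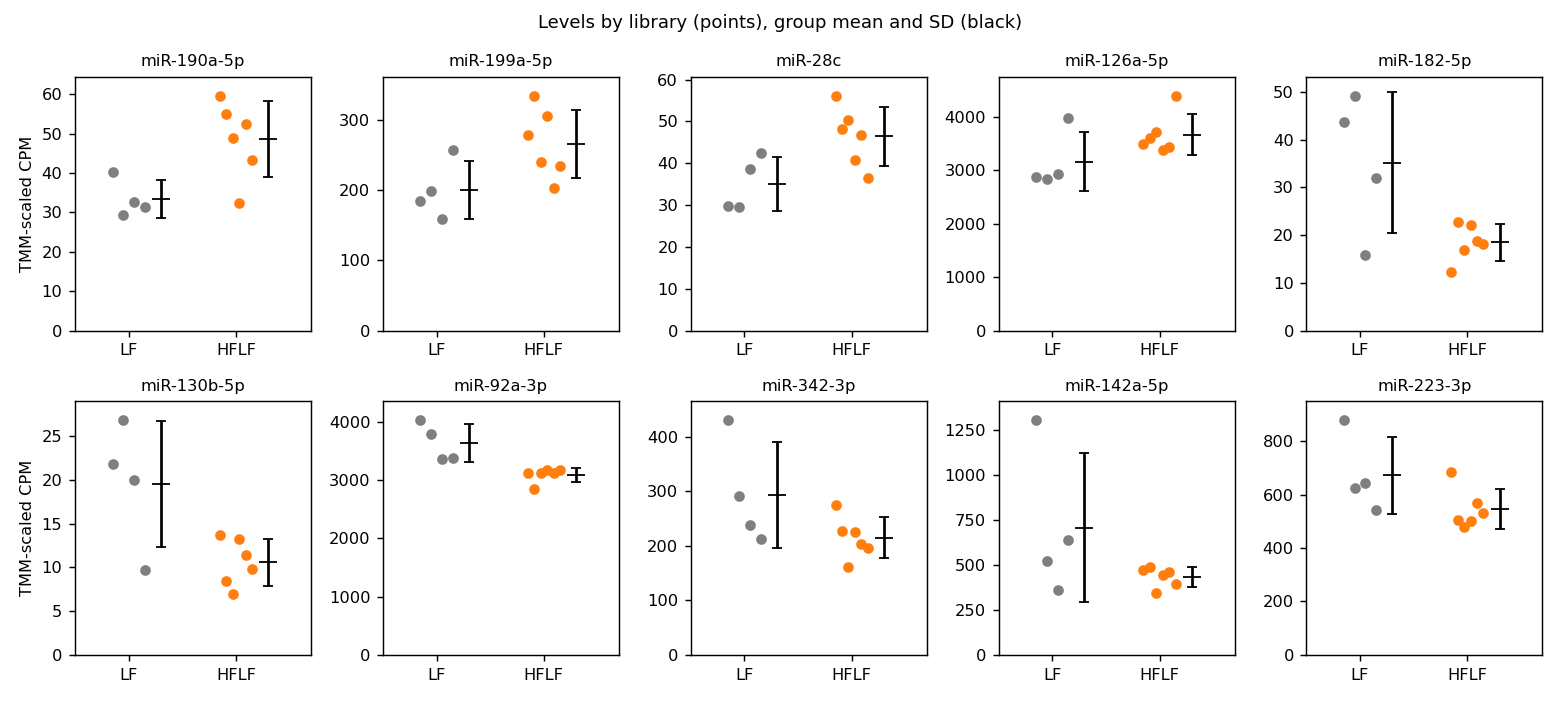
Levels of 10 miRNAs in TMM-scaled CPM in the 4 LF (grey) and 6 HFLF (orange) libraries, 1 point per library in replicate order, with the group mean and SD in black; every axis starts at 0. miR-92a-3p is the 1 panel whose groups do not overlap, and LF replicate 2 (first grey point) is the highest in the panels of miR-142a-5p, miR-342-3p and miR-223-3p.

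None of the 10 most abundant miRNAs passed the test, and the intervals bound their differences within 2-fold. miR-143-3p was at 119901, 196982, 129658 and 218624 TMM-scaled CPM in LF and 153206 to 219326 (median 178164) in HFLF, and its difference of 0.13 ± 0.17 had a 95% interval of -0.23 to 0.49. LF replicates 2 and 5 were below all HFLF libraries and LF replicates 3 and 6 were inside the HFLF range. miR-26a-5p was at 76161, 77177, 82924 and 69769 and 73994 to 90668 (median 78753), a difference of 0.08 ± 0.09 (-0.10 to 0.27). miR-21a-5p, which rises with inflammation and fibrosis in many tissues, was at 54932, 76299, 45118 and 60979.9 and 47387 to 60233 (median 52828), a difference of -0.15 ± 0.13 (-0.42 to 0.11). LF covered a wider range than HFLF in this miRNA, with LF replicates 3 and 6 above and LF replicate 5 below all HFLF libraries. miR-30a-5p differed by 0.03 ± 0.12 (-0.22 to 0.29) and miR-30d-5p, of the same family, by 0.01 ± 0.09 (-0.17 to 0.20). miR-10b-5p, encoded in the Hoxd cluster, was at 29904, 25918, 30958 and 37538 in LF and 27901 to 41186 (median 35280) in HFLF, a difference of 0.16 ± 0.12 (-0.10 to 0.42). All these intervals include 0 and exclude a 2-fold difference, and a p above the threshold does not show that levels were equal.

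The let-7 family is named in the title of the study. let-7f-5p was at 79059, 79575, 79455 and 77264 TMM-scaled CPM in LF replicates 2, 3, 5 and 6 and at 79366, 71794, 75539, 95312, 87916 and 86697 in HFLF replicates 1 to 6. The LF libraries lie within the HFLF range, and the difference of 0.07 ± 0.09 had a 95% interval of -0.12 to 0.26. let-7c-5p was at 57567, 57675, 59852 and 45196 in LF and 47851 to 62553 (median 54678) in HFLF, a difference of -0.02 ± 0.10 (-0.24 to 0.20). let-7a-5p was at 55623, 51528, 55862 and 44948 in LF and 43659 to 60999 (median 51819) in HFLF, a difference of 0.01 ± 0.10 (-0.21 to 0.23). Each has LF replicate 6 as the lowest LF library. let-7g-5p differed by -0.02 ± 0.09 (-0.22 to 0.18). All 11 let-7 and miR-98 5p arms were tested, 6 lay above and 5 below 0, none was called, and the median was 0.01 in a range of -0.05 to 0.30. The signs of let-7a-5p, let-7c-5p and let-7g-5p turn under other scalings or when 1 library is left out, so no direction is given for them. The summed plain level of all 11 arms was 232989 to 302067 CPM in LF and 245290 to 299713 CPM in HFLF, and 246236 to 320578 CPM in HF.

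**Figure D4:**
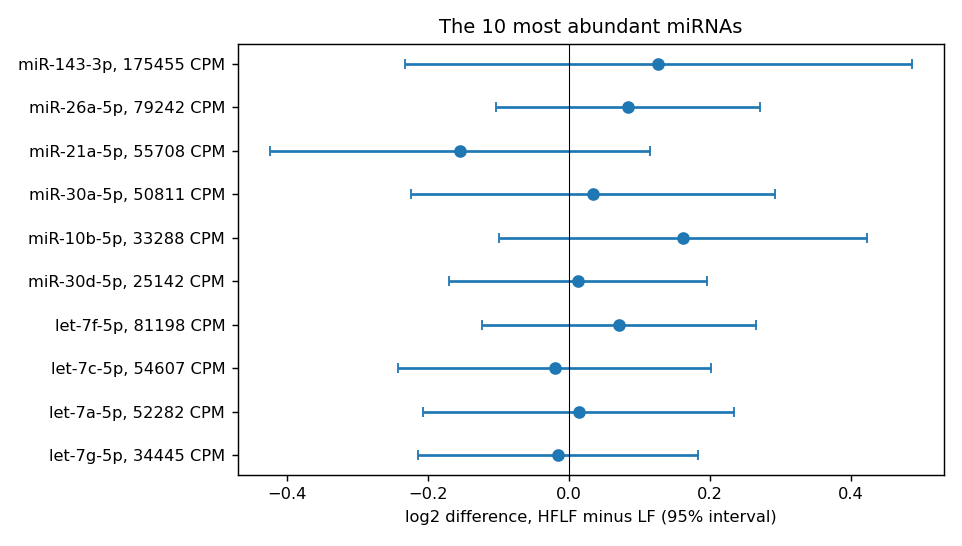
The log2 difference, HFLF minus LF, of the 10 most abundant miRNAs (points) with its 95% interval (bars), and the mean TMM-scaled CPM beside each name. Every interval includes 0, from miR-143-3p (-0.23 to 0.49), the widest shown, to miR-30d-5p (-0.17 to 0.20).

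Other gene groups of adipose biology showed no member past adjustment. Of 25 adipocyte miRNAs tested 13 lay above and 12 below 0 (median 0.00). Of 15 miRNAs known to rise in the fat of obese mice 3 lay above and 12 below 0 (median -0.20), a list that holds the leukocyte miRNAs miR-142a-5p, miR-342-3p and miR-223-3p. Of 16 tested miRNAs known to fall there 7 lay above and 9 below (median -0.03). Those that restrain adipogenesis were 6 above and 8 below (median -0.03), those of brown and beige fat 7 above and 10 below (median -0.04), and those of insulin and lipid regulation 10 above and 8 below (median 0.02).

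Lists of other cell types and clusters varied more. All 5 tested striated muscle miRNAs lay below 0 (median -0.47), and their list summed to 1219 to 2084 CPM in LF and 492 to 2087 CPM in HFLF, which overlap. Of 6 glandular and endocrine miRNAs 5 lay below 0 and 1 above (median -0.32), and of 8 erythroid miRNAs 4 lay on each side (median -0.01). The 3 red cell markers summed to 3679 to 4377 CPM in LF and 2529 to 5022 CPM in HFLF. Hepatocyte miRNAs were 4 above and 1 below (median 0.10), neural 3 and 1 (median 0.24), and those of hypoxia and stress 7 and 2 (median 0.10). The imprinted Dlk1-Dio3 cluster, with 49 tested members, had 26 above and 23 below (median 0.04), and the placental and embryonic Sfmbt2 cluster 6 and 14 of 20 (median -0.13). The miR-322-503 cluster had 8 above and 3 below (median 0.11). The epithelial miR-200 family had 1 above and 5 below (median -0.48) and both tested members of the miR-183 cluster lay below (median -0.76), which are descriptions because of how the libraries were chosen.

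**Figure D5:**
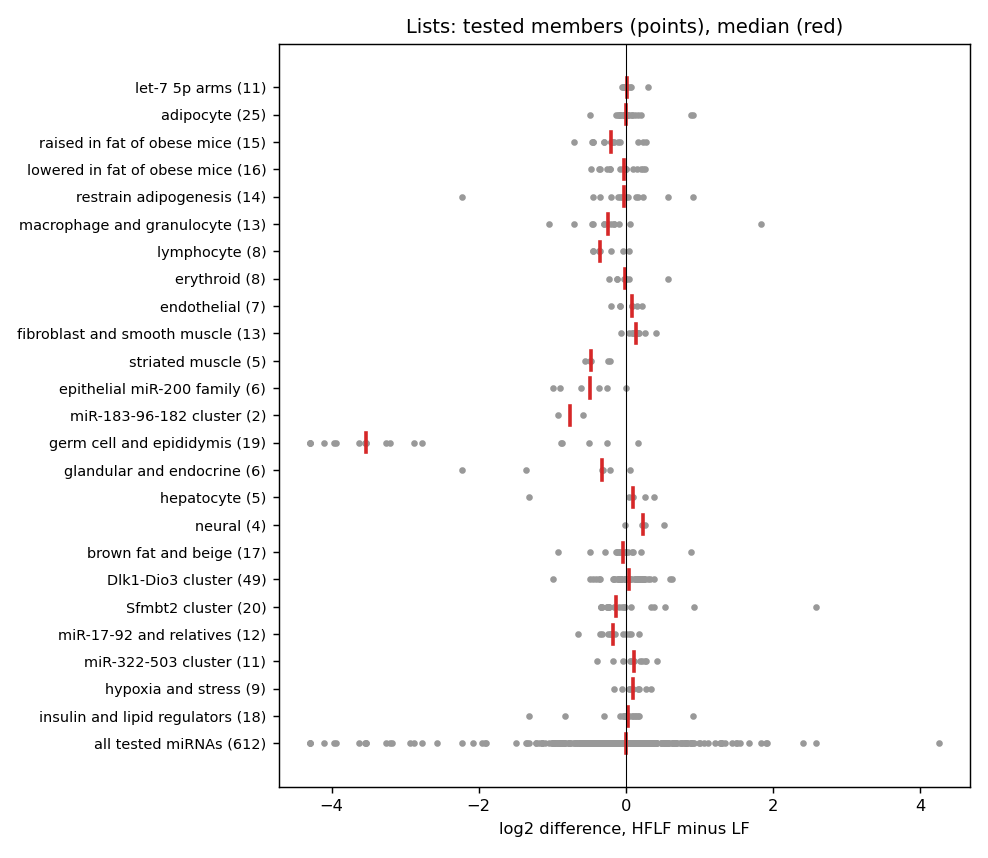
Each grey point is 1 tested miRNA of a list, placed by its log2 difference, HFLF minus LF, and the red bar is the median of the list; the number tested stands in brackets. The medians of the let-7, adipocyte and insulin and lipid lists lie within 0.03 of 0. That of the germ cell and epididymis list, -3.53, rests mostly on 14 low-count cluster members that passed the filter mainly through LF, and is no measure of the list against the others.

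Counts summed by seed asked whether families of miRNAs with shared target sites differed. RefSeq held a mature sequence for 518 of the 612 tested miRNAs, names with the same whole sequence entered once, and 436 seeds were tested. By edgeR's quasi-likelihood test 0 seeds were higher and 0 lower at an adjusted p under 0.05, and at an unadjusted p under 0.05 there were 4 higher (0.917%) and 19 lower (4.36%). Groups did not overlap for 2 seeds (0.459%), 1 in each direction (0.229%). The 5 smallest p-values had an adjusted p of 0.475 each. AUCAGGG, the seed of the miR-465 3p arms, differed by -4.23 ± 0.98 (SE), and AAAGACA, that of miR-743a-3p and miR-743b-3p, by -3.99 ± 1.03. ACUGUGU (miR-881-3p) differed by -3.93 ± 1.14 and UUGGCAA (miR-182-5p) by -0.91 ± 0.28, and AGGGCCA (miR-3109-3p) was the 1 with a positive difference. No fold is given for it, because its LF level rests on 3 counts, all in LF replicate 5. Without LF replicate 5, UUGGCAA passed with a difference of -1.15 and an edgeR adjusted p of 0.036.

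Both arms of a hairpin were tested for 165 hairpins, and in 103 the 2 arms differed in the same direction. Where both arms had a mean of at least 10 CPM, 52 of 74 did. This is a description, since arms of a hairpin share their library and their scaling. A pair is also not always a separate hairpin. The reads of the miR-465 3p arms enter several pairs, and some names come from several hairpins.

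Neither of 2 measures of overall makeup passed its test. HFLF libraries held 545.5 ± 5.43 (SD, n = 6) miRNAs at 1 CPM or more and LF libraries 553.5 ± 14.4 (SD, n = 4), a difference of -8 with p = 0.305 in a 2-sided exact permutation test (0.610 adjusted over the 2 values tested). The 10 most abundant miRNAs took 64.2 ± 1.10% (SD, n = 6) of counts in HFLF and 63.8 ± 2.24% (SD, n = 4) in LF, a difference of 0.368 percentage points with p = 0.733 in the same exact test. The 210 assignments of 10 libraries to the groups allow a smallest p of 0.0095238. The sign of the second difference turned without LF replicate 2 (-0.346) and without LF replicate 5 (-0.171).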

How the data were processed

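Per the labels' protocols, TRI reagent RNA (1 ug a library) was made into NEXTFLEX small RNA libraries. The submitters' processing notes name cutadapt, Bowtie and the build GRCm38.p6, with no versions, settings or miRNA release. What the authors deposited are read counts, 1 line for each mature miRNA and its precursor, and CPM columns scaled to each column total; their deposited log2 tables were not used. A mature name with several precursors has several lines (87 names, of which 51 had identical lines), so 1 line was kept per name. Column letters were read as tissue and group from the deposited table names and the abbreviations alone (C as LF, R as HFLF).

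Plain CPM divides by the total of the kept lines, and TMM-scaled CPM by the total of the tested miRNAs times edgeR's TMM factor. The count test was that of edgeR 4.0.16 in R 4.3.3 (filterByExpr with a minimum count of 10 and total of 15, robust quasi-likelihood F test, Benjamini-Hochberg threshold 0.05), with DESeq2 1.42.0 and limma 3.58.1 (prior count 2) as alternatives, and exact permutation in scipy 1.17.1. Differences are log2, HFLF minus LF, with edgeR's prior count, and are no bound where a group is at 0. The procedure was tested on simulated data. RefSeq sequences were matched by name for 1675 of 1966 names, which held 73.2% to 81.2% of counts. Replicates of a group differed far beyond counting error (lowest chi-square per degree of freedom 97.0). PCR reads are not independent molecules, so floors cover counting error only.

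Named miRNAs were any called, then up to 10 per direction by p at a mean of 10 CPM or more, the 10 most abundant, the 4 most abundant let-7 and adipocyte members, those without overlap and the 5 leading seeds; cluster members, miR-202-5p, miR-3109-3p, miRNAs beyond 2-fold and opposite arms were added after their values were seen. The comparison, the 24 lists and these rules were chosen with earlier results of these data known.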

Additional observations from a re-analysis of the deposited data

Results flagged for a closer look

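Of the LF libraries, the 2 outside the comparison held the miR-200 family at 15997 CPM (replicate 1) and 20819 CPM (replicate 4), against 62.1 to 290 CPM (289.98) in the other eWAT libraries. Within the comparison, 56 groups of values (named miRNAs by group) were checked for a single library far from the rest, and 7 were marked, where chance marks about 1 in 20. Values are TMM-scaled CPM. miR-126a-5p was marked in both groups, with LF replicate 6 at 3987 (others 2844 to 2926) and HFLF replicate 6 at 4393 (others 3372 to 3717). miR-34a-5p was at 168 in LF replicate 3 (others 260.1 to 272). miR-92a-3p was at 2840.4 in HFLF replicate 2 (others 3118 to 3171). miR-6240 was at 18.9 in HFLF replicate 3 (others 38.3 to 55.4). let-7c-5p was at 45197 in LF replicate 6 (others 57567 to 59852), and miR-30a-5p at 64833 in HFLF replicate 6 (others 45967 to 51076).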

How the results depend on the processing

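Over 22 alternatives the count of miRNAs higher in HFLF stayed at 0. The count lower, 0 by edgeR as tested here, was 7 by DESeq2, 6 by limma-trend and 3 without robust estimation. Those last 3 are the miR-465a, miR-465b and miR-465c 3p arms, which are 1 sequence. The count lower was 3 without the low-count filter (miR-182-5p, and miR-878-5p and miR-881-3p of the X-linked cluster), and 0 to 5 when 1 library was left out (5 without LF replicate 2). With a replicate block it was 7, and the seed families lower were 2. In that fit HFLF replicates 1 and 4 had no LF library of the same number, so the difference rests on replicates 2, 3, 5 and 6 of each group. This count of 7, like those by DESeq2, by limma-trend and without LF replicate 2, holds the miR-465 3p sequence under all 3 names. Correlations of same-numbered libraries over the tested miRNAs were -0.04 to 0.01. They cannot exclude a pairing that acts on few miRNAs, and the labels do not state whether the numbers mark one. Seed families lower ran from 0 to 1 with 1 library left out. RLE factors, no factors, a mean of at least 10 CPM, summed lines, names with identical counts taken once (an alternative added after seeing the data), HF libraries in the fit and all 6 LF libraries each gave 0. The cause of these shifts was not tested.

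Of 1015 values of 47 named miRNAs, 959 kept direction and side of the threshold, 19 passed it and 37 changed sign. With all 6 LF libraries the sign turned for miR-199a-5p (-0.27), miR-214-3p (-0.27), miR-199a-3p (-0.22), let-7a-5p (-0.012), miR-10b-5p (-0.044), miR-30d-5p (-0.050) and miR-196b-5p (-1.94). Without factors it turned for let-7a-5p (-0.039), miR-30a-5p (-0.0048) and miR-30d-5p (-0.031), and without the filter for let-7c-5p (0.00099) and let-7g-5p (0.0048). With the replicate block it turned for let-7a-5p (-0.029), miR-30d-5p (-0.0017) and miR-196b-5p (-1.08), with summed lines for miR-30d-5p (-0.00083) and by limma-trend for miR-196b-5p (-0.30). Leaving out 1 library gave -0.045 to 0.083 for let-7a-5p, -0.098 to 0.042 for let-7c-5p, -0.055 to 0.056 for let-7g-5p, -0.047 to 0.15 for miR-30a-5p, -0.024 to 0.045 for miR-30d-5p, -0.95 to 1.59 for miR-196b-5p, -0.53 to 0.22 for miR-142a-3p and -0.72 to 0.18 for miR-130b-3p. The difference in the share of the 10 most abundant miRNAs ran from -0.346 to 1.19 percentage points. All 10 named miRNAs on the lower side and 8 of 10 on the higher side kept their direction in every alternative. They were picked by their p in the main fit and the alternatives use mostly the same libraries, so a kept direction is no independent support. The lower 10 include miR-200c-3p, of the family that chose the libraries.

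The 95% interval of the difference lay within 2-fold for 278 of 314 miRNAs at 10 CPM or more and for 38 of 298 below.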
